A study of Mus musculus with 6 samples.

Results

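The genes of cytochrome P450 families 1, 3 and 4 were compared between livers of WT and β-cateninΔ(ex3)/+ mice. They were chosen by name alone, as every row called *Cyp* followed by 1, 3 or 4, a subfamily letter and a number, which took 29 of the 31950 genes in the table: 3 *Cyp1*, 9 *Cyp3* and 17 *Cyp4* genes. The 4 pseudogene rows of these families were not taken. RNA was measured by sequencing in 3 livers of each group, 6 in all, from C57BL/6 mice labelled as 8 weeks old. WT livers carry intact β-catenin (*Ctnnb1*), and β-cateninΔ(ex3)/+ livers carry 1 allele that lacks exon 3, a deletion that stabilizes the protein. By the study's methods the deletion is made by tamoxifen in hepatocytes of mice with an ERT2-*Alb*-*Cre* transgene, which is driven by the albumin promoter, so other liver cells keep both alleles. Whether the WT mice were given tamoxifen or carried *Cre*, and the sex of the mice, are not stated in the sources used here. Values are FPKM as deposited, that is, sequenced fragments scaled by transcript length and by library size. Levels can be compared between genes and, where differences are large, between livers. Small differences between livers depend on further scaling, as given below.

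Cytochromes P450 are heme enzymes of the endoplasmic reticulum, or of mitochondria, that insert an oxygen atom into lipophilic substrates, with electrons that the microsomal forms receive from cytochrome P450 reductase. CYP1 enzymes oxidize planar aromatic compounds such as caffeine and polycyclic hydrocarbons and are induced through the aryl hydrocarbon receptor, while CYP3A enzymes oxidize steroids and many drugs and are induced through the pregnane X receptor. CYP4 enzymes hydroxylate fatty acids and eicosanoids at or near the end of the chain, and the rodent *Cyp4a* genes are well known targets of PPARα. In the lobule, β-catenin signalling is strongest around the central vein, where *Cyp1a2* is among the genes most closely tied to it.

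The groups differed in more than the *Ctnnb1* allele. *Ctnnb1* itself was at 25.9, 28.0 and 27.3 FPKM in the WT livers and at 25.4, 25.2 and 25.04 FPKM in the β-cateninΔ(ex3)/+ livers, and values per gene do not show the loss of exon 3. The inactive-X transcript *Xist* was between 20.3 and 22.2 FPKM in the WT livers and at most 0.0146 FPKM in the β-cateninΔ(ex3)/+ livers, while the Y-linked *Eif2s3y* was at most 0.0169 FPKM in the former and between 9.20 and 9.94 FPKM in the latter. Of 12 genes tested on a list of genes of the young liver, 11 were lower and none higher in β-cateninΔ(ex3)/+ livers, among them *Afp* (601 to 612 FPKM in WT, 2.38 to 2.81 FPKM in β-cateninΔ(ex3)/+) and *Igf2*, which had 803 to 847 FPKM in WT and was listed at 0 in all 3 β-cateninΔ(ex3)/+ livers. These levels stand against the age of 8 weeks that the labels give for the WT livers, and they hold in all 3 of them, so no comparison without such livers could be made. Genotype, sex-linked genes and young-liver genes moved together in every liver, and their parts in the differences below cannot be told apart. FPKM keep no read counts; from the steps between low values the depth was estimated as 24.5 to 24.75 M fragments in WT and 16.95 to 19.55 M in β-cateninΔ(ex3)/+ livers. Hepatocyte markers summed to 74530 to 77670 FPKM in WT and 38570 to 38980 FPKM in β-cateninΔ(ex3)/+ livers, with none of the 8 markers listed at 0 in either group, so the labelled tissue was present. *Alb* made up most of the sum, at 39618 to 43342 FPKM in WT and 24721 to 25012 FPKM in β-cateninΔ(ex3)/+ livers. Of the 8 markers, 2 were called higher (*Tat* and *Hnf4a*) and 2 lower (*Apoa1* and *Ttr*), with a median difference of -0.30 on the log2(FPKM + 1) scale. The part of these markers in the results was not tested. Markers of other liver cells were also lower in sum in β-cateninΔ(ex3)/+ livers for cholangiocytes (48.2 to 51.1 against 25.0 to 25.3 FPKM), endothelial cells (104 to 105.5 against 68.6 to 71.2 FPKM), stellate cells and fibroblasts (106 to 108 against 33.5 to 37.2 FPKM), lymphocytes (17.7 to 19.4 against 13.1 to 14.5 FPKM) and erythroid cells (3306 to 3648 against 1809 to 1871 FPKM), with no marker at 0 in all livers of a group. *Spp1* made up most of the cholangiocyte sum, with means of 36.7 FPKM in WT and 15.3 FPKM in β-cateninΔ(ex3)/+ livers. Only 1 of the 5 cholangiocyte markers tested was called. Of 7 lymphocyte markers tested, 1 was called higher and 2 lower, with a median difference of 0.57. Kupffer and myeloid cell markers were higher in sum, as given below beside *Cyp4f18*. In bulk RNA, fewer cells of a type and less RNA per cell cannot be told apart.

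In FPKM as deposited, the summed level of these P450 genes was alike in both groups while its make-up differed. Summed over the 29 genes, the livers held 1063.7, 1104.8 and 1075.8 FPKM in WT and 1082.6, 1069.6 and 1072 FPKM in β-cateninΔ(ex3)/+, and these ranges overlap. The likeness of the sums depends on the scaling. Median-ratio scaling divides WT livers by 0.9286 to 0.9412 and β-cateninΔ(ex3)/+ livers by 1.062 to 1.0735, which would put every β-cateninΔ(ex3)/+ sum below every WT sum. Shares within a liver do not change with it. The *Cyp1* genes took 6.00% to 6.05% of the sum in WT and 33.6% to 34.5% in β-cateninΔ(ex3)/+ livers. For *Cyp3* genes the share was 47.5% to 47.8% in WT against 33.6% to 34.3%, and for *Cyp4* genes 46.2% to 46.4% against 31.4% to 32.04%. *Cyp4a14*, *Cyp4a31* and *Cyp3a16* together made up 34.7% to 35.1% of the sum in WT livers and 0.538% to 0.664% in β-cateninΔ(ex3)/+ livers. In their place *Cyp1a2*, *Cyp4v3* and *Cyp4f14* went from 8.40% to 8.72% in WT to 52.9% to 53.5% in β-cateninΔ(ex3)/+ livers.

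**Figure D1:**
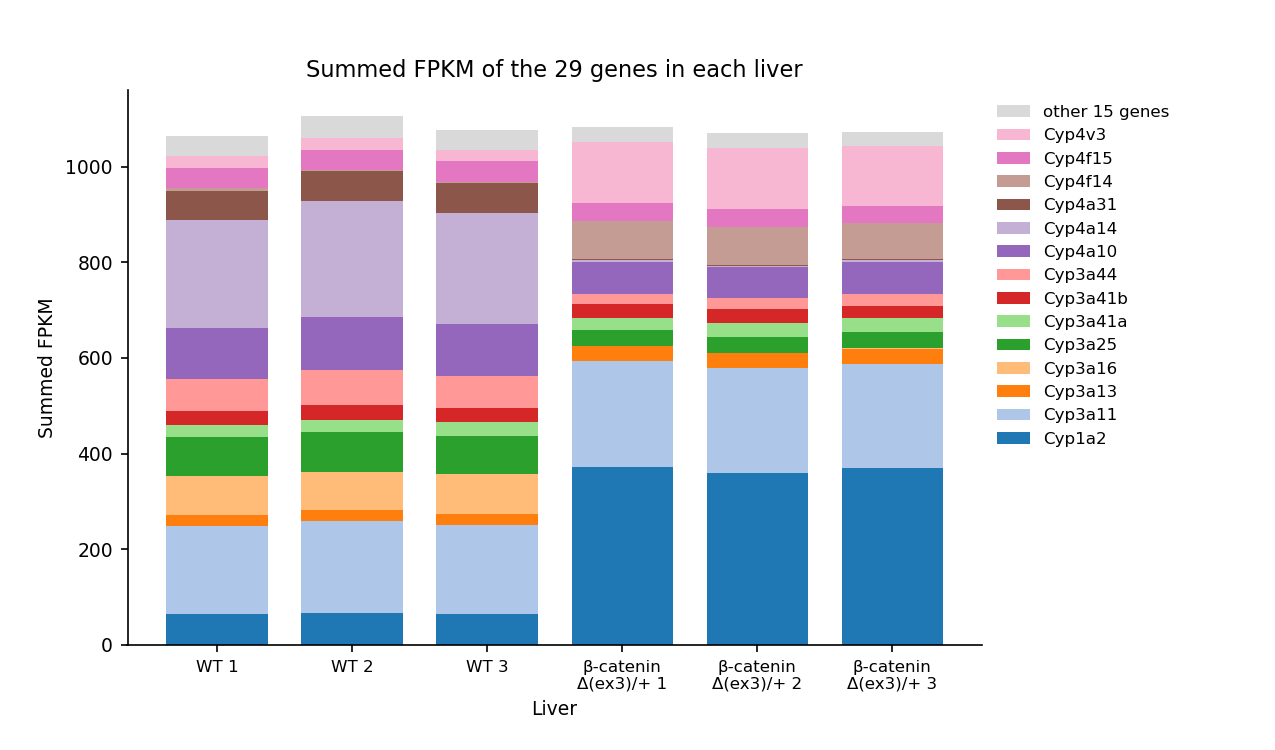
Summed FPKM of the 29 genes (vertical axis) in each of the 3 WT and 3 β-cateninΔ(ex3)/+ livers (horizontal axis), stacked by gene, with the 15 genes of low level joined at the top. The bars reach 1063.7 to 1104.8 FPKM in WT and 1069.6 to 1082.6 FPKM in β-cateninΔ(ex3)/+ livers, while the *Cyp1a2* segment at the base is about 65.2 FPKM in the former and 367 FPKM in the latter.

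Of the 29 genes, 22 had a mean of at least 0.5 FPKM over the 6 livers and entered the test, which was run with limma on log2(FPKM + 1) over all 13243 genes that passed, with Benjamini-Hochberg adjustment. A gene was called when its adjusted p was under 0.05 and its fold change on that scale at least 2. By this rule 10 of the 22 (45.5%) were called, against 12.7% of all genes tested. Higher in β-cateninΔ(ex3)/+ livers were 4 genes (*Cyp1a2*, *Cyp4a12a*, *Cyp4f14* and *Cyp4v3*), where 8.17% of all genes were called higher, and lower were 6 (*Cyp3a16*, *Cyp3a25*, *Cyp3a44*, *Cyp3a59*, *Cyp4a14* and *Cyp4a31*), where 4.52% of all genes were called lower. The median difference was -0.15 over the 22 genes and 0.14 over all genes on the log2(FPKM + 1) scale. *Cyp4a12a* passed the filter only through the group in which it was high, and without it the median of the others was -0.19. It is left out by a filter at a mean of at least 1 FPKM. With that filter 9 genes of the families were called, 3 higher and 6 lower, and 1564 of 10969 genes over all. An adjusted p under 0.05 at any fold was reached by 19 of the 22 genes, 8 higher and 11 lower, but also by 57.0% of all genes tested, so the small differences among them are given as values only. The livers of the groups did not overlap for 19 of the 22 genes and for 66.0% of all genes. The *Cyp2* genes, the largest P450 family in the table, had 23 of 34 tested genes called, 16 higher and 7 lower, with a median of 0.77.

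**Figure D2:**
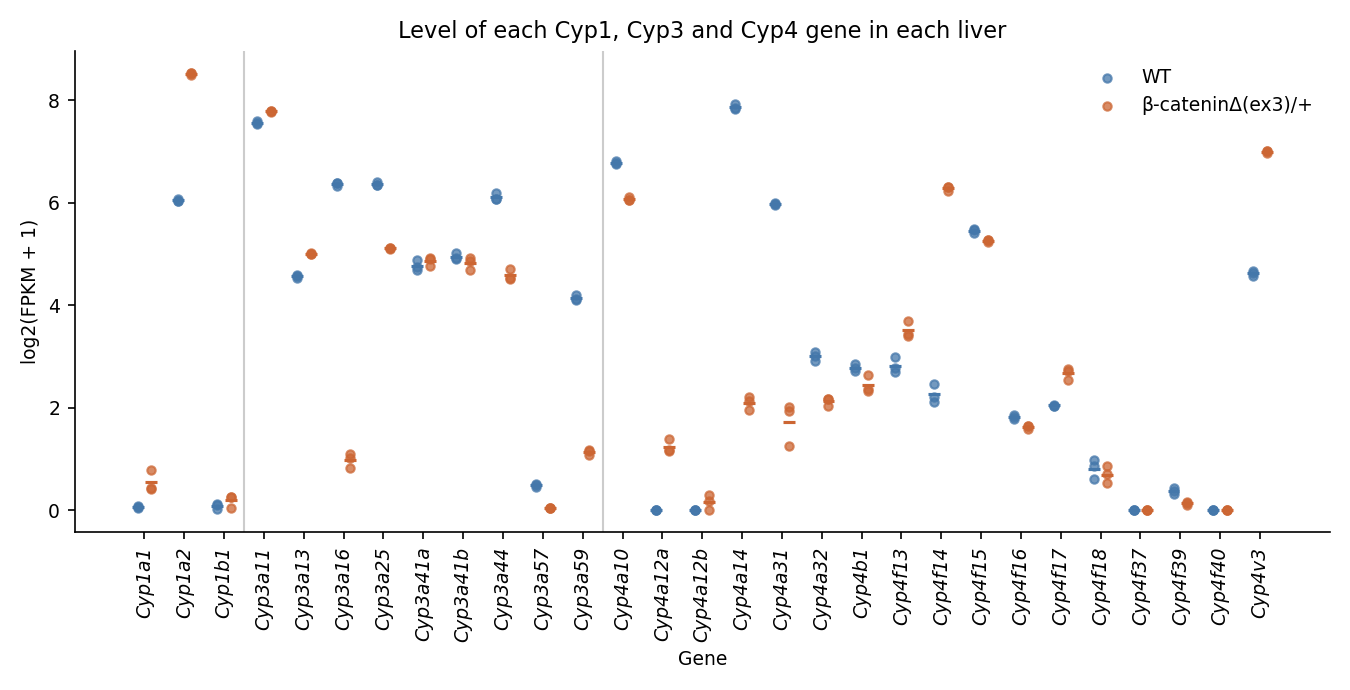
Level of each of the 29 genes in each liver, as log2(FPKM + 1) (vertical axis), with genes grouped by family along the horizontal axis; points are livers (blue, WT; orange, β-cateninΔ(ex3)/+) and lines the mean of 3. *Cyp4a14* is the gene with the highest level in WT and *Cyp1a2* the one in β-cateninΔ(ex3)/+ livers, and the points of a group lie close together beside the distance between groups.

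**Figure D3:**
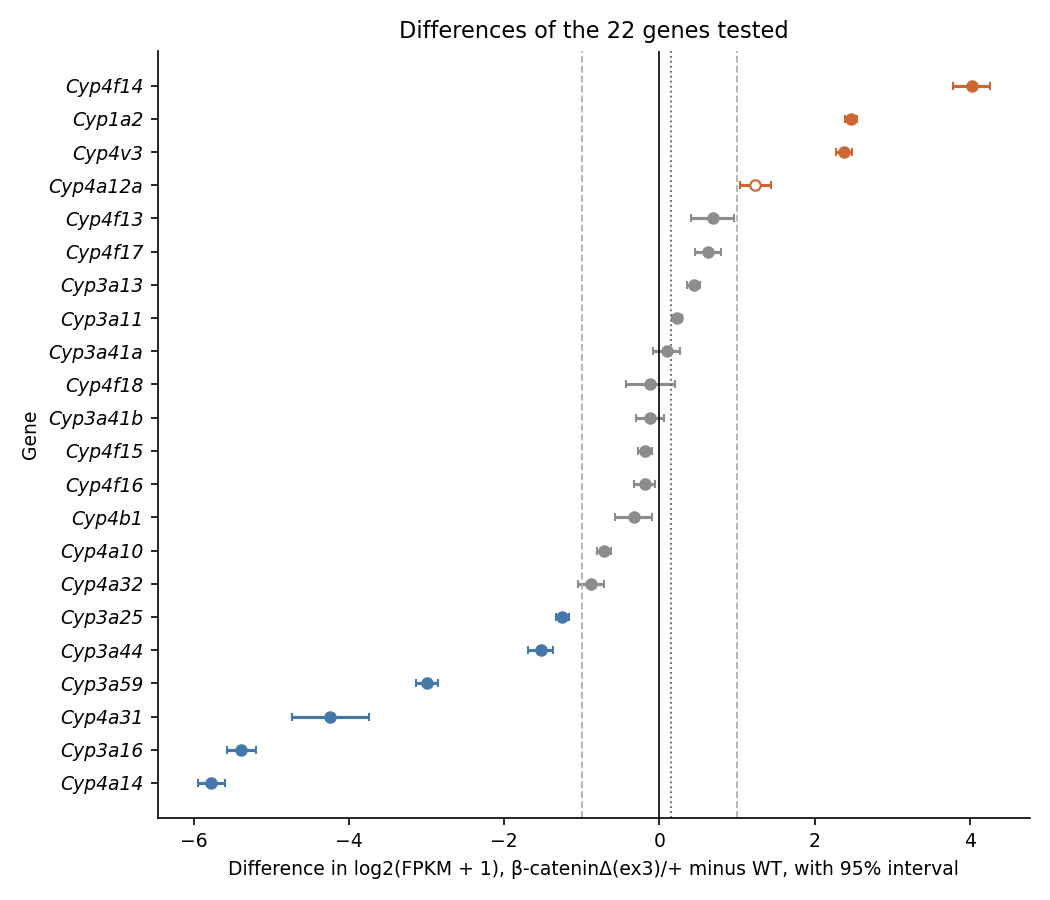
Difference in log2(FPKM + 1) between β-cateninΔ(ex3)/+ and WT livers (horizontal axis) for the 22 genes tested (vertical axis), with 95% intervals from limma; orange and blue mark genes called higher and lower, grey those not called, dashed lines a 2-fold change and the dotted line the median of all genes. The differences run from -5.78 for *Cyp4a14* to 4.03 for *Cyp4f14*, and the open symbol is *Cyp4a12a*, which was listed at 0 in WT livers and has no fold.

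*Cyp1a2* is the main P450 of its family in liver and oxidizes caffeine and aromatic amines. Its 250 bases before the RefSeq start site are shown because they hold a match to the 7 letters CTTTGAA, a form of the TCF/LEF motif through which β-catenin acts. In the sequence, from RefSeq on GRCm38.p6 and written 5′ to 3′ along the gene, the first run of capitals is that match, read on the other strand, and the second is the TATAAA of a TATA box.
*Cyp1a2*, chr9:57683656-57683905, minus strand: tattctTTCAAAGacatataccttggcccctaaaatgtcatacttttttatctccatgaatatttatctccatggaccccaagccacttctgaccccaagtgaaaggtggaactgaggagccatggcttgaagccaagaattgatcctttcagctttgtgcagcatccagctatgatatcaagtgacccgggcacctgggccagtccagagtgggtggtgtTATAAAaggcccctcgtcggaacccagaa
The TCF/LEF match begins 244 bases and the TATAAA 29 bases before the start. Both strands were searched in the 250 bases before the start of the 23 genes of these families that the RefSeq table holds. For these the start nearest the deposited gene start was taken. The same search was run on 27025 promoters, the first listed for each gene name, which are called all promoters here. CTTTGAA was found before 2 of the 23 genes, *Cyp1a2* and *Cyp3a13*, and before 4.64% of all promoters, and CTTTGAT before none of the 23 and 3.23% of all. The core letters of the aryl hydrocarbon receptor site, GCGTG, were before 5 of the 23 genes, *Cyp1a1*, *Cyp1b1*, *Cyp4f16*, *Cyp4f39* and *Cyp4v3*, and before 28.21% of all promoters. These are matches of letters in a short window and nothing was drawn from them about binding.

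In the WT livers *Cyp1a2* (ENSMUSG00000032310, chr9:57676937-57683703) was at 64.3, 66.8 and 64.4 FPKM, and in the β-cateninΔ(ex3)/+ livers at 372, 359 and 369 FPKM. All 3 β-cateninΔ(ex3)/+ livers lay far above all 3 WT livers, with means of 65.2 ± 1.41 and 367 ± 7.05 FPKM (SD, n = 3). The mean level was 5.63-fold higher, and the difference was 2.47 on the log2(FPKM + 1) scale (standard error 0.031, limma adjusted p = 6.52e-08). *Cyp1a2* went from the seventh to the first place in level among the 29 genes. The neighbouring *Cyp1a1* (ENSMUSG00000032315), which in liver is known for its low basal level and its induction by aryl hydrocarbon receptor ligands, was under the filter, at 0.0289, 0.0584 and 0.0440 FPKM in WT and 0.351, 0.716 and 0.337 FPKM in β-cateninΔ(ex3)/+ livers. The livers did not overlap, but *Cyp1a1* stayed under 0.2% of the *Cyp1* sum in every liver. *Cyp1b1*, which is expressed mainly outside the liver and acts on estradiol and aromatic hydrocarbons, was at 0.0133 to 0.0826 FPKM in WT and 0.0336 to 0.202 FPKM in β-cateninΔ(ex3)/+ livers, and its livers overlapped.

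The aryl hydrocarbon receptor senses many of the compounds that CYP1 enzymes oxidize. Of 10 genes tested on a list of that receptor's partners and targets, 1 was called higher and 1 lower, and the median difference was 0.42. *Ahr*, the receptor, was at 4.87 to 5.46 FPKM in WT and 6.51 to 6.86 FPKM in β-cateninΔ(ex3)/+ livers, a difference of 0.33 (limma adjusted p = 0.00322). The gene called higher was *Xdh*, xanthine dehydrogenase, at 2.35 to 2.58 FPKM in WT and 24.3 to 25.2 FPKM in β-cateninΔ(ex3)/+ livers (difference 2.87, limma adjusted p = 1.80e-07). *Ugt1a6a* and *Ugt1a6b*, transcripts of the shared *Ugt1a* locus, varied between livers of 1 group from 7.72 to 45.3 FPKM and from 9.71 to 65.9 FPKM and were not called. Of 15 genes tested on a list of pericentral hepatocyte genes, to which *Cyp1a2* would belong by location but on which it was not counted, 10 were higher and none was lower, with a median of 1.65. The 3 with the largest increase were *Oat*, ornithine aminotransferase (15.0 to 16.5 FPKM in WT, 601 to 615 FPKM in β-cateninΔ(ex3)/+), the glutamate transporter *Slc1a2* (0.237 to 0.321 against 20.2 to 20.6 FPKM) and the sterol 27-hydroxylase *Cyp27a1* (19.8 to 21.006 against 233 to 243 FPKM). On a list of periportal genes 5 of 15 were higher and 3 lower. The largest increases there were those of *Cyp2f2*, a P450 of naphthalene metabolism (12.9 to 13.5 against 168 to 177 FPKM), *Ass1* of the urea cycle (168 to 179 against 747 to 804 FPKM) and the serine dehydratase *Sds* (13.9 to 20.8 against 81.6 to 85.4 FPKM). The decreases were those of *Aldh1b1* (51.3 to 53.0 against 18.2 to 19.2 FPKM), of *Pck1*, the gluconeogenic carboxykinase (553 to 566 against 201 to 211 FPKM), and of the cadherin gene *Cdh1* (11.6 to 13.5 against 5.46 to 6.12 FPKM).

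CYP3A enzymes handle steroids and drugs, and in mice their genes form a cluster of close relatives. Of the 9 genes 8 lie within 768 kb on chromosome 5 and *Cyp3a13* lies apart on the same chromosome. In β-cateninΔ(ex3)/+ livers 4 of the 8 tested genes were lower and none was higher, and the median was -0.69. *Cyp3a11*, the main drug-metabolizing CYP3A of adult mouse liver, was the second most abundant of the 29 genes in both groups, at 185, 192 and 187 FPKM in WT and 221, 219.8 and 219 FPKM in β-cateninΔ(ex3)/+ livers. Its livers did not overlap, and its difference of 0.23 (standard error 0.028, limma adjusted p = 0.000812) was under the fold threshold and was 0.03 (limma adjusted p = 0.402, with 0.000718 to 0.402 over the alternatives) with median-ratio scaling and 0.06 (limma adjusted p = 0.173) with quantile normalization. *Cyp3a11* made up 36.4% to 36.6% of the *Cyp3a* sum in WT and 59.8% to 60.7% in β-cateninΔ(ex3)/+ livers. *Cyp3a13*, which is also expressed in intestine, was at 22.7, 23.2 and 22.2 FPKM in WT and 31.1, 31.4 and 30.8 FPKM in β-cateninΔ(ex3)/+ livers, a difference of 0.44 (standard error 0.036, limma adjusted p = 0.000144). Over the alternatives this difference ran from 0.15 to 0.46, with limma adjusted p from 0.000122 to 0.0257.

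The 4 genes called lower lie in the cluster, on either side of *Cyp3a11*. *Cyp3a16*, a form best known from the liver of fetal and young mice, had 82.4, 79.3 and 83.3 FPKM in the WT livers and 0.773, 1.03 and 1.13 FPKM in the β-cateninΔ(ex3)/+ livers. Every WT liver was high and every β-cateninΔ(ex3)/+ liver close to the filter, with mean levels that differed 83.5-fold and a difference of -5.39 (standard error 0.077, limma adjusted p = 9.91e-08). *Cyp3a59* went from 16.3, 17.4 and 16.2 FPKM to 1.10, 1.24 and 1.27 FPKM, 13.8-fold lower in mean level (difference -3.00, standard error 0.057, limma adjusted p = 2.87e-07). *Cyp3a44*, which is known as a female-biased form, was at 66.0, 72.3 and 66.8 FPKM in WT and 21.9, 22.1 and 25.0 FPKM in β-cateninΔ(ex3)/+ livers (difference -1.53, standard error 0.067, limma adjusted p = 9.58e-06). *Cyp3a25*, at 80.3, 84.0 and 80.6 FPKM in WT and 33.4, 33.6 and 34.0 FPKM in β-cateninΔ(ex3)/+ livers, was the fourth gene called lower (difference -1.25, standard error 0.034, limma adjusted p = 1.27e-06). None of these 4 genes had overlapping groups. *Cyp3a57* was under the filter at 0.372 to 0.419 FPKM in WT and 0.0257 to 0.0292 FPKM in β-cateninΔ(ex3)/+ livers, and the pseudogene row *Cyp3a63-ps* in the same cluster was at 19.9 to 21.9 FPKM and 1.18 to 2.27 FPKM.

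*Cyp3a41a* and *Cyp3a41b*, also known as female-biased forms, are near copies whose coding sequences are 99.87% identical, and 82.9% of the 150-base windows of *Cyp3a41a* occur in *Cyp3a41b*, so reads of this length can often not be placed between them and each value is uncertain. *Cyp3a41a* was at 25.9, 24.7 and 28.5 FPKM in WT and 26.3, 28.8 and 29.4 FPKM in β-cateninΔ(ex3)/+ livers, and *Cyp3a41b* at 28.9, 31.6 and 29.2 FPKM and at 28.3, 29.2 and 24.9 FPKM. Summed, they were at 54.8, 56.3 and 57.7 FPKM in WT and 54.6, 58.0 and 54.3 FPKM in β-cateninΔ(ex3)/+ livers. The groups overlapped for each and for the sum. The 95% interval of the difference was -0.08 to 0.26 for *Cyp3a41a* (limma adjusted p = 0.301) and -0.30 to 0.06 for *Cyp3a41b* (limma adjusted p = 0.203), intervals that exclude a 2-fold change in either direction. The sign for *Cyp3a41a* turned with median-ratio scaling (-0.09) and quantile normalization (-0.20, limma adjusted p = 0.0435). For *Cyp3a41b* the difference ran from -0.40 to -0.05 over the alternatives, with limma adjusted p from 0.00641 to 0.479.

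The genes that fell and those that did not are close relatives. The coding sequence of *Cyp3a16* is 92.81% identical to that of *Cyp3a41a*, and that of *Cyp3a44* is 95.78% identical to it, while their intervals of difference do not overlap: -5.58 to -5.20 for *Cyp3a16*, -1.70 to -1.37 for *Cyp3a44* and -0.08 to 0.26 for *Cyp3a41a*. Over the 250 bases before the start, *Cyp3a41a* was 91.34% identical to *Cyp3a16* and 94.4% to *Cyp3a44*. A second such pair is *Cyp3a25* with *Cyp3a59*, whose coding sequences are 97.49% and whose upstream bases are 94.82% identical, and whose intervals are -1.34 to -1.17 and -3.14 to -2.86. No 150-base window of *Cyp3a16* or *Cyp3a44* occurs in another member, and 13 windows are shared between *Cyp3a25* and *Cyp3a59*, so few of their reads could match another member exactly. The last 120 bases before the RefSeq start (GRCm38.p6) of these 5 genes are shown to place how alike they are beside how differently they moved. Capitals mark bases that differ from, or have no partner in, the aligned *Cyp3a41a* sequence in *Cyp3a16* and *Cyp3a44*, and the aligned *Cyp3a25* sequence in *Cyp3a59*.
*Cyp3a16*, chr5:145469724-145469843, minus strand: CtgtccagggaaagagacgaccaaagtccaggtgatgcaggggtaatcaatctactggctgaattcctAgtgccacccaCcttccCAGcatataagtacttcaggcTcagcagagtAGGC
*Cyp3a41a*, chr5:145720137-145720256, minus strand: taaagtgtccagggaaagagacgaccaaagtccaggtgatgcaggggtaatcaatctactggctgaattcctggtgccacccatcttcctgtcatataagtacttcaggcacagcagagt
*Cyp3a44*, chr5:145805875-145805994, minus strand: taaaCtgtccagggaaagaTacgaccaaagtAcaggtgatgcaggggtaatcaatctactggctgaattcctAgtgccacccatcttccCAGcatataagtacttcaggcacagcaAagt
*Cyp3a25*, chr5:146009619-146009738, minus strand: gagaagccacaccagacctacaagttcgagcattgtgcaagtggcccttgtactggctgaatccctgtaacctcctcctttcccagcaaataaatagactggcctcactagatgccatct
*Cyp3a59*, chr5:146079138-146079257, plus strand: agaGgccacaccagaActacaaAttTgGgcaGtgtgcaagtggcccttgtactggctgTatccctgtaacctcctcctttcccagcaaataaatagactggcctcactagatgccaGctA
In this stretch 11 bases are marked in *Cyp3a16*, 8 in *Cyp3a44* and 9 in *Cyp3a59*. *Cyp3a16* and *Cyp3a44* share the marked CAG that replaces 3 bases of *Cyp3a41a*, although they moved by different amounts. Which bases bear on the level of any of these genes was not tested.

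**Figure D4:**
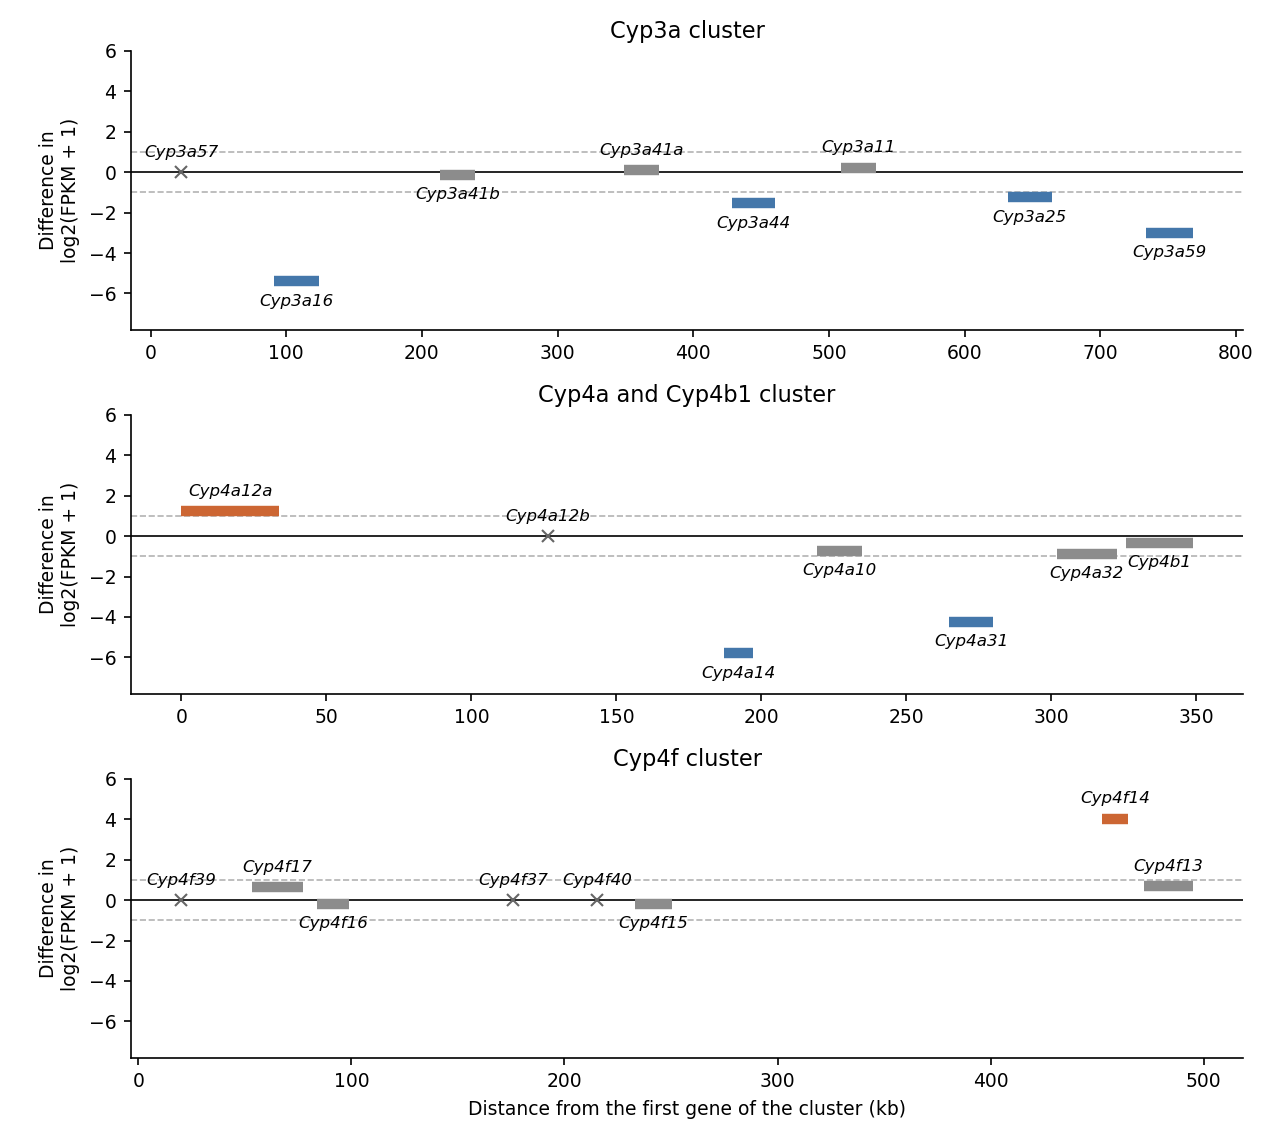
Difference in log2(FPKM + 1) between β-cateninΔ(ex3)/+ and WT livers (vertical axis) against the place of each gene in its cluster, in kb from the first gene (horizontal axis), for the *Cyp3a*, *Cyp4a* and *Cyp4f* clusters; bars span the genes, orange and blue mark those called higher and lower, crosses those not tested and dashed lines a 2-fold change. In the *Cyp3a* cluster, *Cyp3a11*, *Cyp3a41a* and *Cyp3a41b* lie near 0 between genes that fell, and in the *Cyp4a* cluster *Cyp4a10* at -0.71 lies between *Cyp4a14* at -5.78 and *Cyp4a31* at -4.24.

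Nuclear receptors and liver transcription factors set the level of *Cyp3a* genes. Of 16 genes tested on a list of xenobiotic receptors and *Cyp3a* regulators 2 were called higher and none lower, with a median of 0.26. *Hnf4a*, a main hepatocyte transcription factor, was at 56.7 to 58.6 FPKM in WT and 124 to 126 FPKM in β-cateninΔ(ex3)/+ livers (difference 1.10, limma adjusted p = 1.24e-06). Its difference was 0.91 with median-ratio scaling and 0.86 with quantile normalization, under the fold threshold. *Cebpb*, also a transcription factor, was at 16.5 to 34.9 FPKM against 81.9 to 89.9 FPKM (difference 1.67, limma adjusted p = 0.00276). The pregnane X receptor gene *Nr1i2* was at 24.7 to 29.8 FPKM in WT and 20.01 to 22.005 FPKM in β-cateninΔ(ex3)/+ livers (difference -0.32, limma adjusted p = 0.0158), and *Nr1i3*, which encodes the constitutive androstane receptor, was at 51.4 to 55.6 FPKM against 31.6 to 33.3 FPKM (difference -0.71, limma adjusted p = 4.67e-05). Neither reached the fold threshold. *Nr3c1*, the glucocorticoid receptor gene, was at 0.109 FPKM in WT liver 3 and between 6.34 and 6.91 FPKM in the other 5 livers.

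The *Cyp4a* genes encode fatty acid ω-hydroxylases, and their summed level was lower in every β-cateninΔ(ex3)/+ liver than in any WT liver. The sum of the 6 genes was 401.8, 424 and 409.8 FPKM in WT and 77.3, 74.6 and 78.8 FPKM in β-cateninΔ(ex3)/+ livers. *Cyp4a14*, a strongly inducible member, was the most abundant of the 29 genes in WT at 227, 242 and 231 FPKM and had 3.60, 3.36 and 2.87 FPKM in β-cateninΔ(ex3)/+ livers, where it was sixteenth. The groups were far apart, 71.3-fold in mean level (difference -5.78, standard error 0.072, limma adjusted p = 5.90e-08). *Cyp4a31* was at 60.9, 62.0 and 62.5 FPKM in WT and 2.82, 1.37 and 3.02 FPKM in β-cateninΔ(ex3)/+ livers, 25.7-fold lower in mean level (difference -4.24, standard error 0.203, limma adjusted p = 1.38e-05). Among the β-cateninΔ(ex3)/+ livers, liver 2 was the low one, and without it the difference was -4.002. *Cyp4a10* moved less, from 107, 112 and 109 FPKM to 65.9, 65.2 and 68.0 FPKM (difference -0.71, standard error 0.035, limma adjusted p = 1.53e-05), and so became 85.3% to 87.3% of the *Cyp4a* sum, from 26.5% to 26.7% in WT. *Cyp4a32* was at 7.05, 7.50 and 6.57 FPKM in WT and 3.11, 3.48 and 3.52 FPKM in β-cateninΔ(ex3)/+ livers, with no overlap (difference -0.88, standard error 0.068, limma adjusted p = 0.000110). It was under the fold threshold as fitted and past it with a pseudocount of 0.1 (-1.04), median-ratio scaling (-1.04) and quantile normalization (-1.09).

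*Cyp4a10*, *Cyp4a31* and *Cyp4a32* are 96.01% to 97.19% identical in coding sequence. Between 3.54% and 6.96% of their 150-base windows occur in another member, so part of their reads cannot be told apart. For *Cyp4a14* no window does. *Cyp4a12a*, known as a male-biased form, was listed at 0 in all 3 WT livers and at 1.63, 1.25 and 1.22 FPKM in β-cateninΔ(ex3)/+ livers. It was counted as called higher, but it passed the filter only through the group in which it was high, so nothing was drawn from its p-value. No fold can be given against a group at 0. Its near copy *Cyp4a12b*, 98.56% identical in coding sequence and sharing 25.6% of the windows, was at 0 in WT and at 0.236, 0 and 0.130 FPKM in β-cateninΔ(ex3)/+ livers, under the filter. *Cyp4b1*, at the end of the same cluster, encodes an enzyme known mainly from lung. It was at 5.81, 6.20 and 5.56 FPKM in WT and 4.19, 5.23 and 4.001 FPKM in β-cateninΔ(ex3)/+ livers (difference -0.33, standard error 0.096, limma adjusted p = 0.0273), and its adjusted p ran from 0.00508 to 0.082 over the alternatives.

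PPARα is a receptor for fatty acids that drives genes of their oxidation. Of 26 genes tested on a list of *Ppara* and its targets, which holds no *Cyp4a* gene, 8 were called lower and 2 higher, a share of 38.5% beside 12.7% of all genes, and the median was -0.79. *Ppara* itself was at 5.30 to 5.88 FPKM in WT and 2.65 to 2.90 FPKM in β-cateninΔ(ex3)/+ livers (difference -0.79, limma adjusted p = 9.55e-05). The hormone gene *Fgf21* was at 41.3 to 43.4 FPKM in WT and 0 to 0.345 FPKM in β-cateninΔ(ex3)/+ livers (difference -5.25, limma adjusted p = 4.67e-07). *Hadhb* of β-oxidation was at 33.9 to 48.9 FPKM against 8.02 to 13.2 FPKM (difference -1.85, limma adjusted p = 0.000756). The 2 that were higher are *Ehhadh*, the peroxisomal bifunctional enzyme (76.0 to 85.1 against 371 to 375 FPKM, difference 2.22, limma adjusted p = 5.02e-07), and the thioesterase gene *Acot1* (0.765 to 1.49 against 5.25 to 5.72 FPKM, difference 1.68, limma adjusted p = 0.000127). *Cyp4a14* and *Ehhadh*, both textbook targets of the receptor, moved in opposite directions.

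In the *Cyp4f* subfamily, whose enzymes inactivate leukotrienes and hydroxylate long-chain fatty acids, 1 of the 6 tested genes was called. *Cyp4f14*, a leukotriene B4 hydroxylase, was at 4.54, 3.64 and 3.31 FPKM in WT and 78.7, 78.7 and 74.5 FPKM in β-cateninΔ(ex3)/+ livers. All 3 β-cateninΔ(ex3)/+ livers were high, 20.2-fold in mean level (difference 4.03, standard error 0.097, limma adjusted p = 7.72e-07), and *Cyp4f14* rose from the eighteenth to the fourth place in level. Beside it *Cyp4f15* was the main *Cyp4f* gene of WT livers with 43.0, 41.4 and 43.8 FPKM and had 37.7, 37.6 and 36.7 FPKM in β-cateninΔ(ex3)/+ livers (difference -0.19, standard error 0.037, limma adjusted p = 0.00619). *Cyp4f14* thereby made up 57.4% to 58.5% of the *Cyp4f* sum in β-cateninΔ(ex3)/+ livers and 5.59% to 7.53% in WT, where *Cyp4f15* held 70.5% to 73.9%. *Cyp4f13* was at 5.48 to 7.00 FPKM in WT and 9.53 to 11.9 FPKM in β-cateninΔ(ex3)/+ livers (difference 0.69, limma adjusted p = 0.00293), and *Cyp4f17* at 3.10 to 3.18 FPKM against 4.83 to 5.77 FPKM (difference 0.63, limma adjusted p = 0.000559). Both kept their groups apart under the fold threshold. *Cyp4f16* was at 2.45 to 2.62 FPKM in WT and 2.01 to 2.13 FPKM in β-cateninΔ(ex3)/+ livers (difference -0.19, limma adjusted p = 0.0225, with 0.00246 to 0.0684 over the alternatives). *Cyp4f18*, a form known from myeloid cells, was at 0.525 to 0.965 FPKM in WT and 0.439 to 0.807 FPKM in β-cateninΔ(ex3)/+ livers, with overlap and an interval of -0.43 to 0.20 (limma adjusted p = 0.479). Myeloid and Kupffer cell markers summed to 283 to 291 FPKM in WT and 567 to 582 FPKM in β-cateninΔ(ex3)/+ livers, with none at 0. Of 9 tested, 4 were called higher and 1 lower. Most of the rise in the sum came from *Clec4f* (means of 48.5 against 158 FPKM) and *Cd5l* (56.8 against 201 FPKM). *Marco* was the marker called lower (50.1 against 18.9 FPKM). The part of these markers in the value of *Cyp4f18* was not tested. The remaining genes were under the filter. *Cyp4f39*, which makes ultra-long ω-hydroxy fatty acids in skin, was at 0.254 to 0.359 FPKM in WT and 0.0678 to 0.120 FPKM in β-cateninΔ(ex3)/+ livers, *Cyp4f37* was at 0.00831 FPKM in 1 β-cateninΔ(ex3)/+ liver and at 0 in the other 5, and *Cyp4f40* was at 0 in all 6.

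*Cyp4v3*, the mouse gene for the fatty acid hydroxylase that is mutated in Bietti crystalline dystrophy of the retina, stands alone in its subfamily. It was at 23.9, 24.5 and 22.6 FPKM in WT and 128, 128 and 125 FPKM in β-cateninΔ(ex3)/+ livers. The 3 β-cateninΔ(ex3)/+ livers were alike and 5.38-fold higher in mean level (difference 2.38, standard error 0.040, limma adjusted p = 1.83e-07), close to the 5.63-fold of *Cyp1a2*, and *Cyp4v3* moved from the twelfth to the third place in level. Genes that handle eicosanoids and epoxides, the products and substrates of these enzymes, showed no call in 11 tested by limma, with 7 under an adjusted p of 0.05 and a median of 0.03.

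Electron donors and heme supply, which all these enzymes need, were examined next. Of 18 genes tested on that list 3 were called higher and 1 lower, with a median of 0.39. *Por*, which encodes cytochrome P450 reductase, was at 64.3 to 76.8 FPKM in WT and 44.3 to 47.0 FPKM in β-cateninΔ(ex3)/+ livers (difference -0.61, limma adjusted p = 0.000575), under the fold threshold. *Cyb5b*, a mitochondrial cytochrome b5, was at 17.6 to 19.2 FPKM against 105 to 106 FPKM (difference 2.46, limma adjusted p = 1.77e-07). Of the enzymes that make heme, *Uros* was at 1.901 to 2.68 FPKM against 5.22 to 7.72 FPKM (difference 1.17, limma adjusted p = 0.00111) and *Alad* at 87.2 to 98.0 FPKM against 194 to 196 FPKM (difference 1.05, limma adjusted p = 1.31e-05). The difference of *Uros* was 0.99 with quantile normalization, and that of *Alad* 0.86 with median-ratio scaling, 0.84 with quantile normalization and 0.998 without WT liver 2, all under the fold threshold. *Hmox1*, which degrades heme, was at 40.6 to 42.9 FPKM against 18.4 to 21.6 FPKM (difference -1.06, limma adjusted p = 4.64e-05).

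Several of the genes above are known to be expressed unequally by the sexes or at different ages, and lists of such genes moved with the groups. Of 15 genes tested on a list of male-biased liver genes 14 were called higher and none lower, with a median of 2.57, or 2.24 without the 3 that were listed at 0 in WT livers. *Mup12*, *Mup7* and *Mup20*, urinary protein genes, were those 3, at 1227 to 1296, 427 to 509 and 133 to 169 FPKM in β-cateninΔ(ex3)/+ livers. *Mup* genes are near copies of each other, so the value of each is uncertain. Of 15 genes tested on a list of female-biased genes 9 were lower and 4 higher, with a median of -1.26, or -1.46 without the 1 gene listed at 0 in WT livers. The sulfotransferase genes *Sult2a1* and *Sult2a2* were at 263 to 292 and 311 to 321 FPKM in WT and at most 0.292 and 0.978 FPKM in β-cateninΔ(ex3)/+ livers, and *Hao2*, a peroxisomal oxidase gene, went from 62.9 to 68.5 FPKM to between 0.0745 and 0.228 FPKM. Against the list's name, *Sult3a1* was at 0 in WT and 141 to 143 FPKM in β-cateninΔ(ex3)/+ livers, *Cyp17a1* at 0 to 0.181 against 16.9 to 19.4 FPKM and *Cyp2a4* at 1.41 to 1.70 against 8.52 to 9.77 FPKM. *Cux2*, a repressor known from female liver, was at 3.65 to 3.84 FPKM in WT and 0.0840 to 0.126 FPKM in β-cateninΔ(ex3)/+ livers (difference -2.10, limma adjusted p = 1.05e-06). *Bcl6*, a repressor known from male liver, was at 0.242 to 0.324 FPKM against 6.19 to 6.73 FPKM (difference 2.54, limma adjusted p = 6.66e-07). Both were called.

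Of the growth hormone pathway, which sets the sex bias of many liver P450 genes, 1 of 9 tested genes was higher and 1 lower. They were the STAT pathway inhibitors *Socs3* (1.73 to 1.99 against 6.32 to 7.73 FPKM) and *Socs2* (5.45 to 5.74 against 0.766 to 1.01 FPKM). *Igfals*, which encodes a carrier of IGF1, was at 4.11 FPKM in β-cateninΔ(ex3)/+ liver 1 and between 32.4 and 39.5 FPKM in the other 5 livers. Only some of the P450 genes were named above by sex bias, and the others were not sorted by it. Of those named, the male-biased *Cyp4a12a* was detected only in β-cateninΔ(ex3)/+ livers and the female-biased *Cyp3a44* fell. The female-biased *Cyp3a41a* and *Cyp3a41b* did not differ beyond their spread in FPKM as deposited, which depended on the scaling as given above. The imprinted RNA *H19*, also of the young-liver list, went from 2320.4 to 2374 FPKM in WT to at most 0.0480 FPKM in β-cateninΔ(ex3)/+ livers, beside the fall of *Cyp3a16*. The part of sex-linked and young-liver genes in the P450 differences was not tested.

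**Figure D5:**
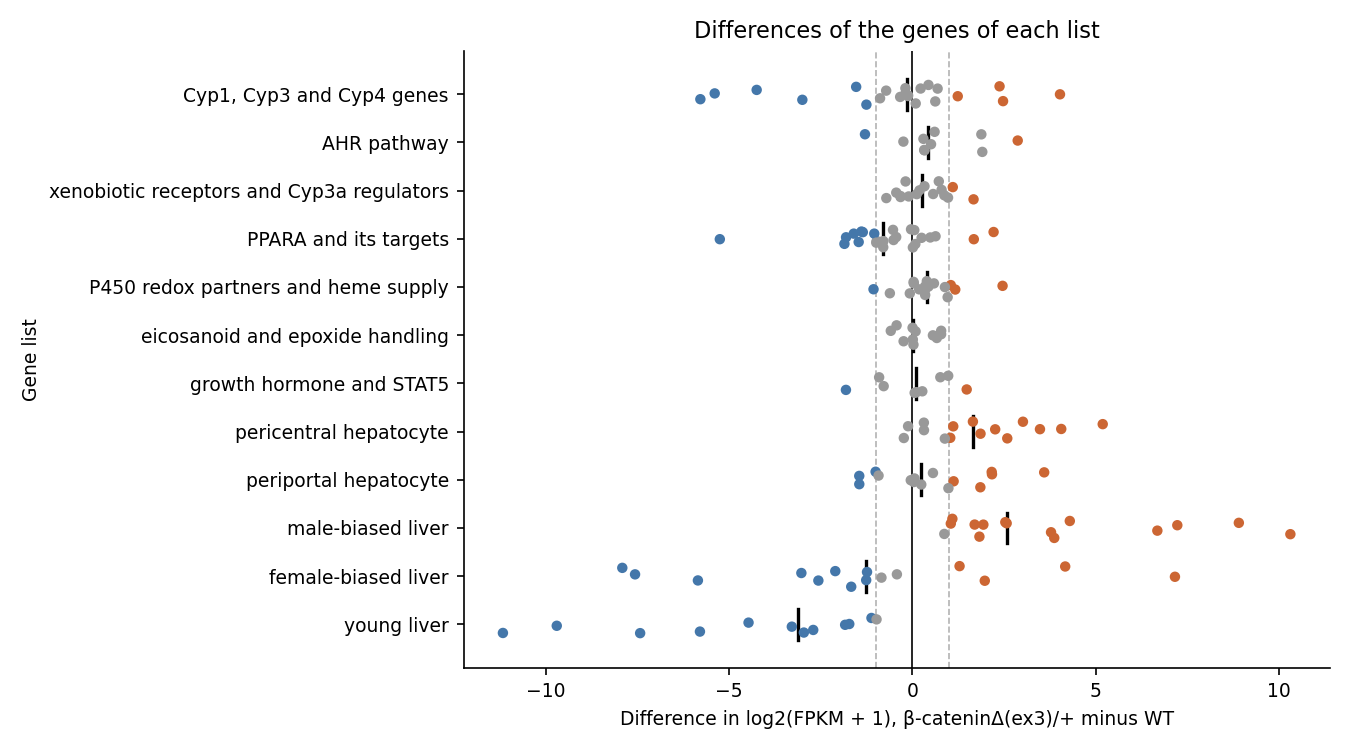
Difference in log2(FPKM + 1) between β-cateninΔ(ex3)/+ and WT livers (horizontal axis) for each tested gene of the P450 families and of 11 gene lists (vertical axis, points spread up and down for legibility), with orange and blue for genes called higher and lower, grey for those not called, black bars for the median and dashed lines for a 2-fold change. The P450 genes spread to both sides, from -5.78 to 4.03, while 14 of 15 male-biased genes were higher and 11 of 12 young-liver genes lower.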

How the data were processed

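RNA from 3 WT and 3 β-cateninΔ(ex3)/+ livers was compared, 1 library per liver and grouped by the sample labels. The authors deposited FPKM values, for 31950 genes in each liver, from poly(A) RNA sequenced in 150-base read pairs. The submitters' processing notes name cutadapt 1.9, HISAT2 2.0.4, StringTie 1.3.4d, DESeq2 and edgeR, without roles. The genome build is not given in the sources used here; all 29 genes have the start and end of GENCODE M21, an annotation of GRCm38. FPKM are not counts, so no count model was run, and depth was only estimated.

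For the 13243 genes with a mean of at least 0.5 FPKM, log2(FPKM + 1) was modelled in R 4.3.3 by limma 3.58.1 with an intensity trend in its eBayes step, with Benjamini-Hochberg adjustment. Genes with an adjusted p under 0.05 and a fold change of at least 2 were called, the thresholds of the study's methods. This scale understates the change of genes with low FPKM. The fit was tested on simulated data. Replicates of the 14 genes with a mean of at least 20 FPKM had a median coefficient of variation of 2.72% in WT and 2.68% in β-cateninΔ(ex3)/+ livers. P-values measure the spread between these 3 livers a group. An exact permutation test of 3 against 3 livers cannot go below p = 0.1 and was not used.

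Every gene of the 3 families is given; from each gene list, up to 3 called genes with the largest increase and 3 with the largest decrease are named, besides *Ahr*, *Nr1i2*, *Nr1i3*, *Ppara*, *Hnf4a*, *Por*, *Cux2*, *Bcl6*, *Ctnnb1* and genes of the sex-chromosome and young-liver lists. Of the genes this rule names, 2 are not reported here. *Nr3c1*, *Igfals*, *Ugt1a6a* and *Ugt1a6b* were named after their values were seen. The genes and lists were chosen with earlier results of these data known. Identity and shared 150-base windows were computed from GENCODE M21 transcripts, and upstream bases are from RefSeq (GRCm38.p6). Python 3.11.15, pandas 2.3.3 and Biopython 1.88 were used for the rest. Alternatives were a pseudocount of 0.1, no filter, a mean of at least 1 FPKM, median-ratio scaling, quantile normalization, no trend, a block for replicate number, leaving out each liver and any fold change; summing near-identical genes was added after the data were seen.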

Additional observations from a re-analysis of the deposited data

Results flagged for a closer look

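*Cyp1a1* lay outside the test, under the filter on low values, and still had every β-cateninΔ(ex3)/+ liver above every WT liver, with means of 0.468 ± 0.215 FPKM and 0.0438 ± 0.0148 FPKM (SD, n = 3). FPKM keep no counts, so the number of fragments behind these levels is unknown.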

How the results depend on the processing

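Calls among the P450 genes changed little. With an adjusted p under 0.05 at any fold, 19 genes of the families were called, 8 higher and 11 lower, and 7551 over all genes. With a pseudocount of 0.1 the number over all genes was 2705, against 1680. When 1 liver was left out in turn, 1647 to 1707 genes were called over all genes and 10 in the families, 4 higher and 6 lower each time. Of 303 values of tested P450 genes in the alternatives, 298 kept their direction and side of the thresholds. *Cyp3a41a* reversed with median-ratio scaling (-0.0948) and quantile normalization (-0.1997), and *Cyp4a32* passed the fold threshold in 3 alternatives; the cause was not tested. Both scalings moved the median of all genes, by -0.136 and -0.164, and the share of higher among called genes from 64.4% to 53.0% and 49.5%, so differences within about that shift of 0 depend on the scaling. Summing near-identical genes left 10 called. Counts of some gene lists moved. PPARα targets called lower were 13 with quantile normalization, against 8. Genes of electron donors and heme supply called higher were 1 with quantile normalization, against 3, and xenobiotic receptors and regulators called higher were 1 with either scaling, against 2. Aryl hydrocarbon receptor genes called higher were 2 with the replicate block or a mean of at least 1 FPKM and 3 without β-cateninΔ(ex3)/+ liver 2, against 1. *Cdh1* was under the fold threshold without WT liver 2 (-0.95) and without β-cateninΔ(ex3)/+ liver 1 (-0.97) or 3 (-0.99).

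With the replicate block, 1673 genes were called over all genes and 10 in the families. Deviations of same-numbered livers correlated by 0.0142 on average, not every liver correlated best with its own number, and the numbers were not taken to pair the livers. Limits are the filter, which left out 7 of the 29 genes, the unknown number of fragments behind low values, and near-copies whose reads can be split between rows.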

Other observations

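Without the filter on low values, 6 of the 7 untested genes of these families entered the fit, and *Cyp4f40*, at 0 in every liver, did not. On the log2(FPKM + 1) scale, the difference was 0.48 for *Cyp1a1* (limma adjusted p = 0.0169), -0.44 for *Cyp3a57* (limma adjusted p = 0.000127) and -0.25 for *Cyp4f39* (limma adjusted p = 0.00684), none of them past the fold threshold. For *Cyp1b1*, *Cyp4a12b* and *Cyp4f37* the adjusted p was 0.291, 0.179 and 0.803. The pseudogene row *Cyp3a63-ps* (chr5:145624092-145633993), which lies between *Cyp3a41b* and *Cyp3a41a*, fell in the filtered fit by 3.04 on the same scale (standard error 0.147, limma adjusted p = 1.47e-05), while both of its neighbours kept overlapping groups.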
